A study of Homo sapiens with 4 samples.

Results

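The ERK feedback genes are 10 genes whose transcription is widely read as an output of ERK signalling: the phosphatase genes DUSP4, DUSP5 and DUSP6, the Sprouty and Spred inhibitor genes SPRY2, SPRY4, SPRED1 and SPRED2, the ETS factor genes ETV4 and ETV5, and the early response gene EGR1. They were chosen by name and not by level, but with earlier results of these data known. Each symbol matched 1 of the 58735 gene IDs in the data through GENCODE v29. All 10 passed the filter on low values (a mean of at least 1 FPKM), as did 12866 genes in all. RNA-seq gave their transcript levels in 4 libraries that carry the label Huh7, the name of a liver cancer line. The knockdown group (shNME7) has 2 libraries, from cells with a hairpin against NME7, and the control group (shCtrl) has 2, from cells with a control hairpin; the labels name no drug, ligand or time point for either. The sources used here do not give the number of hairpins, or whether the cells were a pool or a clone. No label ties a replicate to a separate culture, so each p-value below speaks of the spread between these libraries, which may be technical.

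The labelled cell type was not borne out by its defining markers. 0 of 10 hepatic genes reached 1 FPKM, the highest value being 0.0848 FPKM for HNF4A, and 4 of the 10 were at 0 in all libraries. Over all 10, which include albumin (ALB), AFP and APOA1, the summed fragments numbered 10 and 9 in shNME7 and 8 and 12 in shCtrl. The fibroblast genes were mixed: 4 of 6 reached a mean of 1 FPKM, with summed levels of 98.7 and 97.3 FPKM in shNME7 and 103 and 92.1 FPKM in shCtrl. Most of each sum was COL3A1, at 75.1 and 76.6 FPKM in shNME7 and 75.8 and 66.9 FPKM in shCtrl. COL1A2 had 0 and 0 fragments in shNME7 and 2 and 0 in shCtrl, and DCN was at most 0.0734 FPKM. Of 5 endothelial genes 1 reached a mean of 1 FPKM, CDH5, at up to 2.67 FPKM. Their summed levels were 2.87 and 3.54 FPKM in shNME7 and 2.37 and 2.03 FPKM in shCtrl. 0 of 6 leukocyte genes reached it. The libraries held 14877906 and 16991397 recovered fragments in shNME7, and 15865321 and 16050268 in shCtrl. The library shNME7 2 stood apart from shCtrl 2 and shNME7 1, but not from shCtrl 1. The chi-square of its fragments, divided by the degrees of freedom, was 43.8 against shCtrl 2, 27.3 against shNME7 1 and 17.96 against shCtrl 1. By the same measure shNME7 1 gave 13.97 against shCtrl 2 and 17.06 against shCtrl 1, and the shCtrl libraries gave 15.11 against each other. The targeted gene NME7 stood at 0.835 and 0.626 FPKM in shNME7, against 3.64 and 3.93 FPKM in shCtrl, 5.18-fold lower in the mean. Its adjusted p was 0.310 in limma-trend, the test used throughout, and 0.000544 in limma-voom on recovered fragments.

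ERK is the last kinase of the RAS, RAF and MEK cascade, which carries signals from growth factor receptors to the nucleus. Active ERK raises transcription of its own inhibitors: DUSP phosphatases remove the activating phosphates from ERK, and Sprouty and Spred proteins act further up, where Spred proteins bring the RAS-inactivating protein neurofibromin (NF1) to the membrane. ETV4, ETV5 and several DUSP and SPRY genes are held down by the repressor Capicua (CIC), which ERK signalling inactivates, whereas EGR1 is switched on within minutes through ERK-phosphorylated ternary complex factors bound beside serum response factor. In liver cancer and other tumours, levels of these transcripts are used as a readout of pathway activity, but transcript levels alone do not measure the phosphorylation of ERK.

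The promoters of EGR1 and DUSP6 are shown because they carry, in letters, those 2 classes of control sequence. RefSeq promoter windows on GRCh38.p14, each running from 250 bases before to 50 bases after an annotated start, were matched for 6 of the 10 genes (DUSP6, SPRY2, SPRY4, SPRED1, SPRED2 and EGR1; 9 windows). The window of EGR1, on the plus strand at chr5:138465229-138465528, is printed with its CArG boxes (the binding sequence of serum response factor) in capitals, and that of DUSP6, on the minus strand at chr12:89352452-89352751, with its CIC octamers in capitals.
EGR1: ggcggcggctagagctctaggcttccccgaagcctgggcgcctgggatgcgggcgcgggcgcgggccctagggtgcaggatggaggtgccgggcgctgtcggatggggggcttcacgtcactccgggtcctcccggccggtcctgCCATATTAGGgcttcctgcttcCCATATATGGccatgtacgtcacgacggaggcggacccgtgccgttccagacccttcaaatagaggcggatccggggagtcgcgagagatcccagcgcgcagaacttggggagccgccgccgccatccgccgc
DUSP6: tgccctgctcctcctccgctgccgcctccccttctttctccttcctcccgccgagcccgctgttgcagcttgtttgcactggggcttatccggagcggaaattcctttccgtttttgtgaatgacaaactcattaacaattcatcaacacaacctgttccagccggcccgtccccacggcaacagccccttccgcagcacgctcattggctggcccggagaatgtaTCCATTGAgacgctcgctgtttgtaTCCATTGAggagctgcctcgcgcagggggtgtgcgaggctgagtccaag
EGR1 had 2 CArG boxes, both before its annotated start. 1.29% of the 35116 windows in the table held a CArG box, and no other matched gene of the 6 did. DUSP6 had 2 CIC octamers, 1 before and 1 just after its start, both read on the opposite strand. The octamer was searched on both strands in the forms TGAATGAA, TGAATGGA, TCAATGAA and TCAATGGA, which 3.77% of all windows held. Among the other motifs searched on both strands, the ETS sequence CCGGAA lay in a window of SPRY2 (17.2% of all windows), the AP-1 sequence TGACTCA or TGAGTCA in one of SPRED2 (4.95%), and the cyclic AMP response element core TGACG in windows of SPRY2, SPRY4, SPRED2 and EGR1 (24.6%). The letters of the 5 motifs do not overlap one another in these windows. The shares are per window, whereas the matches are listed by gene, and SPRY2 and SPRED2 had more than 1 window each. These matches describe the sequence and show no binding.

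The 2 shNME7 libraries were compared with the 2 shCtrl libraries, the only comparison that the labels imply. Each of the 10 genes had a lower mean in shNME7 than in shCtrl, but 0 of 10 passed the test in limma-trend (0% of the 12866 genes passed, 859 of them having an unadjusted p under 0.05). In limma-voom 0 of 10 passed too, against 0.132% of 15112 genes. In DUSP4, DUSP6, SPRY4, SPRED1, SPRED2 and ETV5, neither shNME7 library reached the lower of the shCtrl libraries. That is 6 of 10, where 18.4% of all tested genes lay so; 0 of 10 lay above, against 17.8% of all genes. DUSP4, SPRED1, SPRED2 and ETV5 had an unadjusted p under 0.05, 4 of 10 against 3.22% of all genes being at such a p and lower. The 10 genes were chosen with earlier results of these data known, so these shares only describe them. The median difference of the 10 genes was -0.36 on the log2(FPKM + 1) scale, where all tested genes had a median of 0.01 with quartiles at -0.13 and 0.16, and 47.8% of them had a lower mean in shNME7. Without shNME7 2 the median of the 10 was -0.22 and 8 of 10 were lower; without shNME7 1 it was -0.45 and all 10 were lower. In bulk RNA, fewer cells of a type and less RNA per cell cannot be told apart. All differences below are on the log2(FPKM + 1) scale, which understates the change of genes near 1 FPKM, and means are given with SD for n = 2 libraries per group.

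**Figure D1:**
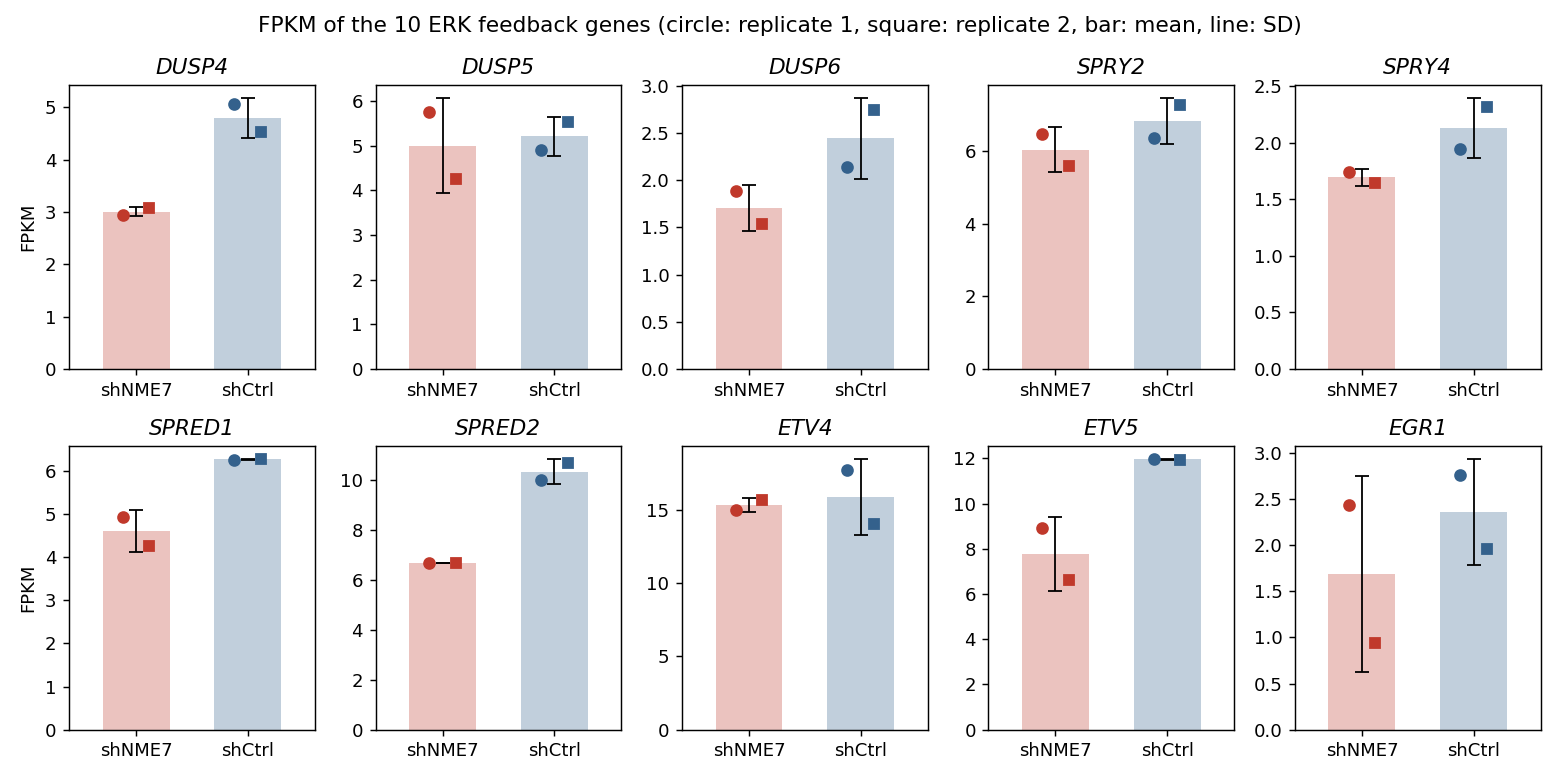
FPKM of each of the 10 genes in shNME7 (left, red) and shCtrl (right, blue), with circles for replicate 1, squares for replicate 2, bars for the mean and lines for the SD of 2 libraries. The groups are apart in DUSP4, DUSP6, SPRY4, SPRED1, SPRED2 and ETV5, and overlap in DUSP5, SPRY2, ETV4 and EGR1.

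Among the phosphatases, DUSP4, a nuclear enzyme that removes phosphate from ERK and other MAP kinases, showed the widest gap. DUSP4 (ENSG00000120875, chr8:29333064-29350668, minus strand, GRCh38) stood at 2.94 and 3.07 FPKM in shNME7, against 5.06 and 4.52 FPKM in shCtrl. The shNME7 libraries lay close together, and both were well below the lower shCtrl library. The means were 3.01 ± 0.0874 FPKM in shNME7 and 4.79 ± 0.380 FPKM in shCtrl, 1.59-fold lower. The difference of -0.53 (SE 0.14, 95% interval -0.88 to -0.18) had an adjusted p of 0.661 in limma-trend and, as -0.67, one of 0.303 in limma-voom. These values rest on 321 and 378 fragments in shNME7 and 584 and 529 in shCtrl, and the gap is wider than counting error: the exact Poisson intervals of the shNME7 libraries ended at 3.28 and 3.39 FPKM, and those of the shCtrl libraries began at 4.66 and 4.14 FPKM.

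DUSP6 is the cytoplasmic phosphatase with the strongest preference for ERK, and the one most often used as a readout of the pathway. DUSP6 (ENSG00000139318, chr12:89347232-89353271, minus strand) stood at 1.88 and 1.54 FPKM in shNME7, against 2.14 and 2.74 FPKM in shCtrl. The groups were apart, but shNME7 1 and shCtrl 1 were close. The means were 1.71 ± 0.243 FPKM in shNME7 and 2.44 ± 0.424 FPKM in shCtrl, with a difference of -0.34 (SE 0.18, interval -0.78 to 0.09) and an adjusted p of 0.795 in limma-trend. The difference was -0.22 without shCtrl 2. Its fragments numbered 131 and 121 in shNME7 and 158 and 205 in shCtrl, and the Poisson interval of shNME7 1 (1.57 to 2.23 FPKM) overlapped that of shCtrl 1 (1.82 to 2.51 FPKM). The antisense gene AC024909.2 shares 1875 exonic bases with DUSP6 and was at 0 fragments in every library. Whether fragments were counted by strand is not given in the sources used here, so transcripts of the 2 strands cannot be told apart there.

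DUSP5, a nuclear phosphatase specific for ERK, did not follow the other phosphatases. DUSP5 (ENSG00000138166, chr10:110497838-110511544, plus strand) stood at 5.75 and 4.26 FPKM in shNME7, against 4.90 and 5.52 FPKM in shCtrl. The shNME7 libraries were the highest and the lowest of the 4, so the groups overlapped entirely. The difference was -0.06 with an interval of -0.47 to 0.36. The sign turned to 0.12 without shNME7 2 and to 0.013 without shCtrl 2. Within a library, DUSP5 was 1.95 and 1.39 times DUSP4 in shNME7, and 0.969 and 1.22 times DUSP4 in shCtrl. These ratios did not overlap between the groups. With 2 against 2 libraries that always gives an exact two-sided permutation p of 0.333, the smallest possible, so the test adds nothing to it. The ratio of DUSP4 to DUSP6 did overlap, at 1.56 and 1.99 in shNME7 and 2.36 and 1.65 in shCtrl.

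Of the Sprouty and Spred genes, SPRED2 had the most even separation of the groups. SPRED2 (ENSG00000198369, chr2:65310851-65432637, minus strand), whose protein binds neurofibromin and dampens RAS signalling, stood at 6.69 and 6.68 FPKM in shNME7, against 9.998 and 10.7 FPKM in shCtrl. Both shNME7 libraries had almost the same level, below both shCtrl libraries. The means were 6.69 ± 0.00316 FPKM in shNME7 and 10.4 ± 0.500 FPKM in shCtrl, 1.55-fold lower. The difference was -0.56 (SE 0.13, interval -0.88 to -0.24), at a limma-trend adjusted p of 0.572. By unadjusted p it was 96th of 12866 genes, the first of the 10. Its fragments, 518 and 585 in shNME7 and 820 and 890 in shCtrl, gave Poisson intervals that ended at 7.29 and 7.25 FPKM in shNME7 and began at 9.33 and 10.01 FPKM in shCtrl. Leaving out any 1 library moved the limma-trend difference of SPRED2 only between -0.61 and -0.52.

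SPRED1, the second Spred gene and the one mutated in Legius syndrome, was also lower in both shNME7 libraries. SPRED1 (ENSG00000166068, chr15:38252326-38357249, plus strand) stood at 4.95 and 4.26 FPKM in shNME7, against 6.27 and 6.27 FPKM in shCtrl. The shCtrl libraries were level with each other, and the shNME7 libraries lay apart below them. The means were 4.60 ± 0.483 FPKM in shNME7 and 6.27 ± 0.00408 FPKM in shCtrl, 1.36-fold lower. The difference was -0.38 (SE 0.14, interval -0.72 to -0.04), at a limma-trend adjusted p of 0.730. The ratio of SPRED2 to SPRED1 within a library was 1.35 and 1.57 in shNME7 and 1.59 and 1.71 in shCtrl. It did not overlap between the groups, so its exact two-sided permutation p was again 0.333.

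The Sprouty genes differed less between the groups. SPRY4 (ENSG00000187678, chr5:142310427-142326455, minus strand), an inhibitor of receptor-driven RAS activation, stood at 1.74 and 1.64 FPKM in shNME7, against 1.94 and 2.31 FPKM in shCtrl. Its groups were apart by a margin that counting error can fill: shNME7 1 had a Poisson interval of 1.49 to 2.02 FPKM and shCtrl 1 one of 1.69 to 2.23 FPKM. The difference was -0.21 (SE 0.17, interval -0.62 to 0.19), at a limma-trend adjusted p of 0.836, and it was -0.13 without shCtrl 2. SPRY2 (ENSG00000136158, chr13:80335976-80340951, minus strand), which binds the adaptor GRB2 and the ubiquitin ligase CBL, stood at 6.48 and 5.60 FPKM in shNME7, against 6.37 and 7.27 FPKM in shCtrl. Here shNME7 1 lay just above shCtrl 1, so the groups overlapped. The difference of SPRY2 was -0.15 with an interval of -0.51 to 0.20. It was -0.061 without shNME7 2, -0.069 without shCtrl 2, -0.24 without shNME7 1 and -0.23 without shCtrl 1. SPRY2 was 3.72 and 3.41 times SPRY4 in shNME7 and 3.28 and 3.14 times SPRY4 in shCtrl, also without overlap.

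The ETS factors ETV4 and ETV5 are close relatives that Capicua represses. In the values as deposited the groups were apart in ETV5 and overlapped in ETV4. ETV5 (ENSG00000244405, chr3:186046308-186110318, minus strand) stood at 8.93 and 6.63 FPKM in shNME7, against 11.96 and 11.95 FPKM in shCtrl. The shCtrl libraries were level, and the shNME7 libraries lay below them at unequal distance, shNME7 2 the lower. The means were 7.78 ± 1.63 FPKM in shNME7 and 11.95 ± 0.00792 FPKM in shCtrl, 1.54-fold lower. The difference was -0.57 (SE 0.17, interval -0.98 to -0.17), at a limma-trend adjusted p of 0.725. Without shNME7 1 it was -0.76 and passed (adjusted p 0.00879 in limma-trend, 0.00769 in limma-voom), and without shNME7 2 it was -0.38 and did not. The lone shNME7 library is then assumed to vary as the shCtrl libraries do, and these were nearly equal in ETV5.

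ETV4 (ENSG00000175832, chr17:43527844-43579620, minus strand) had the highest level of the 10 genes and overlapping groups. It stood at 15.0 and 15.7 FPKM in shNME7, against 17.7 and 14.1 FPKM in shCtrl. Both shNME7 libraries lay between the shCtrl libraries. The difference was -0.04 with an interval of -0.42 to 0.34, and it turned to 0.12 without shCtrl 1. Within a library ETV4 was 1.68 and 2.37 times ETV5 in shNME7, and 1.48 and 1.18 times ETV5 in shCtrl. These ratios did not overlap, so their exact two-sided permutation p was again 0.333. They are not corrected for GC content, 60.3% in ETV4 and 50.2% in ETV5. Once a trend on GC content and length was removed, both shNME7 libraries lay below shCtrl in ETV4 too, at a difference of -0.19. ETV4 shares 68 exonic bases with DHX8 on the other strand, which stood at 9.84 and 10.6 FPKM in shNME7 and 10.4 and 10.7 FPKM in shCtrl.

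EGR1, a zinc finger factor induced within minutes of ERK activation, had the widest spread between replicates relative to its level. EGR1 (ENSG00000120738, chr5:138465490-138469315, plus strand) stood at 2.44 and 0.938 FPKM in shNME7, against 2.76 and 1.96 FPKM in shCtrl. Only shNME7 2 was low, and shNME7 1 lay between the shCtrl libraries. The 50 fragments of shNME7 2 gave a Poisson interval of 0.696 to 1.24 FPKM, below those of the other 3 libraries, which began at 1.59 FPKM or higher. The difference was -0.37 (SE 0.30, interval -1.09 to 0.35), at a limma-trend adjusted p of 0.836. It was -0.78 and passed without shNME7 1 (adjusted p 0.0438 in limma-trend), and 0.044 without shNME7 2, so its direction rested on that library. ETV5 and EGR1 were the 2 of 10 that passed without shNME7 1, where 1.73% of all genes passed and were lower; without any other single library 0 of 10 passed.

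**Figure D2:**
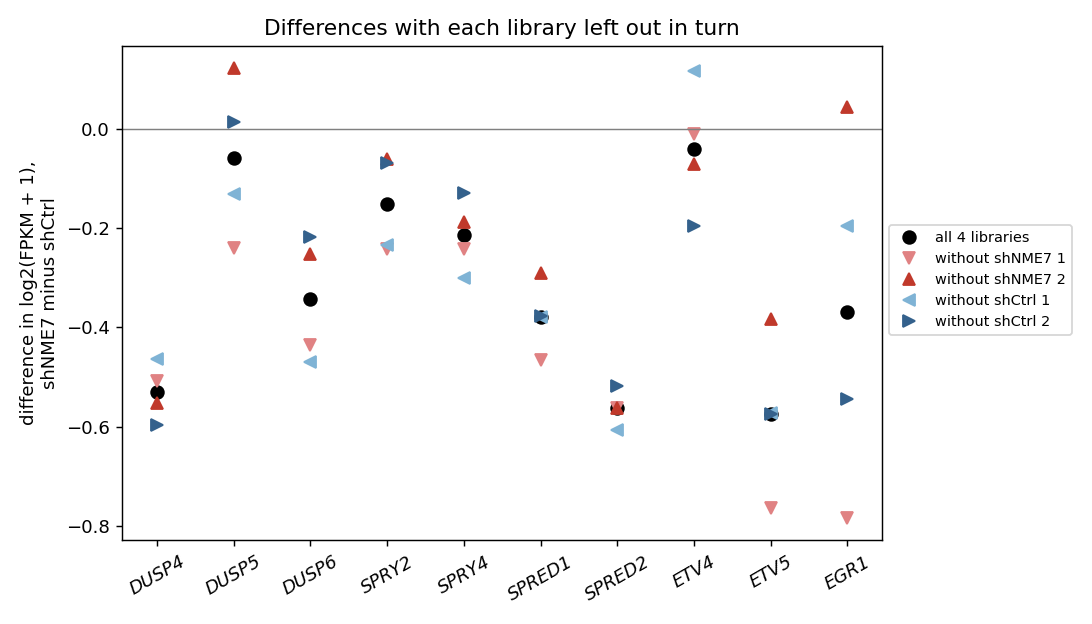
Difference in log2(FPKM + 1), shNME7 minus shCtrl, on the y axis for each gene with all 4 libraries (black circle) and with each library left out (coloured triangles). SPRED2 stays between -0.61 and -0.52, ETV5 lies between -0.76 and -0.38, and DUSP5, ETV4 and EGR1 cross 0.

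Levels per length, in FPKM, kept nearly the same order in the groups. In shNME7 the order from high to low was ETV4, ETV5, SPRED2, SPRY2, DUSP5, SPRED1, DUSP4, DUSP6, SPRY4 and EGR1. In shCtrl it was ETV4, ETV5, SPRED2, SPRY2, SPRED1, DUSP5, DUSP4, DUSP6, EGR1 and SPRY4. In shNME7 the neighbours ETV5 and SPRED2, SPRY2 and DUSP5, DUSP5 and SPRED1, DUSP6 and SPRY4, and SPRY4 and EGR1 overlapped over their libraries. In shCtrl DUSP5 and DUSP4, DUSP6 and EGR1, and EGR1 and SPRY4 did. The gene with the median level of all tested genes stood at 6.79 FPKM, and the mean levels of the 10 genes lay between the percentiles 15.1 (SPRY4) and 74.6 (ETV4).

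GC content moved with the comparison across the transcriptome. Over 12857 genes the difference was larger at higher GC content of the transcripts (Spearman rho 0.42 across genes, which share libraries and are not independent), and rho was -0.03 once a trend on GC content and length had been removed from each library. The 10 genes ran from 40.7% GC (SPRED1) to 60.3% (ETV4), around a median of 48.9% for all genes. With the trend removed, DUSP4 stood at -0.55, SPRED2 at -0.58 and ETV5 at -0.57, each within 0.02 of its value above, with adjusted p-values of 0.196, 0.196 and 0.261 in limma-trend. SPRED1, the lowest in GC, was at -0.25, nearer to 0. ETV4, the highest in GC, was at -0.19, and DUSP5 at -0.18, farther from 0. SPRY2 and ETV4 then joined the 6 genes whose shNME7 libraries both lay below, 8 of 10 against 23.5% of all genes. The median of the 10 was then -0.29, and 0 of 10 passed.

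**Figure D3:**
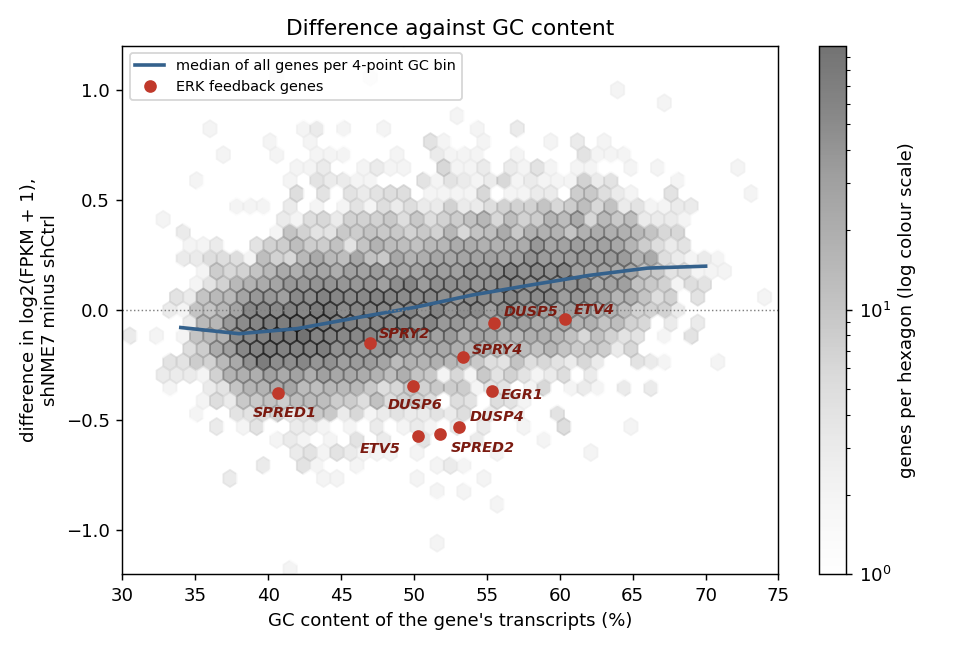
Difference in log2(FPKM + 1), shNME7 minus shCtrl, on the y axis against the GC content of the transcripts in percent on the x axis. Grey hexagons count the tested genes, the blue line joins medians per GC bin, and red points are the 10 ERK feedback genes, each of which lies below the line; genes beyond the axis range, NME7 among them, are not drawn.

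**Figure D4:**
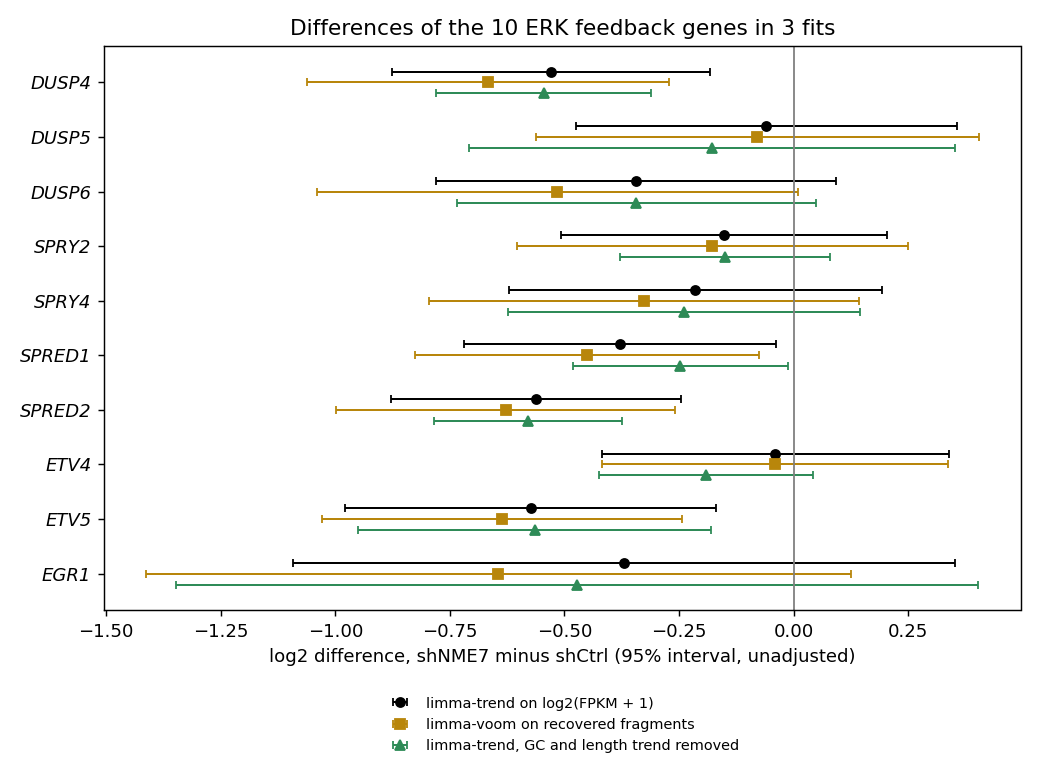
Log2 difference, shNME7 minus shCtrl, on the x axis for each gene in limma-trend (black circle), limma-voom (yellow square) and limma-trend with the GC and length trend removed (green triangle), with 95% intervals not adjusted for the number of genes. In all 3 the intervals of DUSP4, SPRED1, SPRED2 and ETV5 lie below 0, and 0 of the 10 genes pass after adjustment.

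The other genes of the pathway gave a mixed picture. Of 88 listed genes 68 were tested, and 0 passed in limma-trend or in limma-voom. 45 had a lower mean and 23 a higher mean in shNME7; the shNME7 libraries were both below those of shCtrl for 21 and both above for 5 of the 68, beside 18.4% and 17.8% of all genes. Their median difference was -0.10, and 6 of 68 had an unadjusted p under 0.05, as had 859 of all 12866 genes. With the GC trend removed, 31 of 68 lay wholly below, beside 23.5% of all genes. Among the ligands 4 of 10 were tested, all with a lower mean and 2 wholly below. FGF2, a ligand of FGF receptors, stood at 21.5 and 17.6 FPKM in shNME7 and 21.4 and 24.3 FPKM in shCtrl, and the EGF receptor ligand gene EREG at 21.5 and 16.0 FPKM in shNME7 and 17.6 and 21.1 FPKM in shCtrl. Both overlapped between the groups. The 2 wholly below, named after their values were seen, were the EGF receptor ligand genes AREG, at 1.37 and 0.607 FPKM in shNME7 and 2.21 and 1.81 FPKM in shCtrl, and TGFA, at 1.35 and 1.40 FPKM in shNME7 and 1.76 and 1.47 FPKM in shCtrl. AREG rests on 34 and 17 fragments in shNME7 and 58 and 48 in shCtrl.

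Receptors were lower for 7 and higher for 3 of the 10 tested of 13. MET, the receptor of hepatocyte growth factor, stood at 29.9 and 28.9 FPKM in shNME7, against 39.7 and 43.3 FPKM in shCtrl, with a difference of -0.48 and an adjusted p of 0.687 in limma-trend. FGFR3 stood at 5.68 and 7.91 FPKM in shNME7, against 5.25 and 3.81 FPKM in shCtrl, at 0.49 with an adjusted p of 0.747. MET was thus below and FGFR3 above shCtrl in both libraries, neither past the test with all libraries. The GC content of their transcripts was 43.9% in MET and 62.9% in FGFR3. With the GC trend removed 4 of the 10 receptors lay wholly below, beside 23.5% of all genes, and 2 above. The difference of FGFR3 was 0.70 without shNME7 1, which leaves 1 shNME7 library, 0.29 without shNME7 2 and 0.30 without shCtrl 2. EGFR, chosen after its values were seen, averaged 29.7 ± 2.78 FPKM in shNME7 and 39.4 ± 3.76 FPKM in shCtrl (difference -0.40).

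All 12 adaptors and RAS regulators were tested, with 9 lower and 3 higher means and 5 of 12 wholly below, beside 18.4% of all genes. Their median was -0.20, and -0.07 with the GC trend removed. SOS1, the exchange factor that loads RAS with GTP, stood at 6.28 and 5.43 FPKM in shNME7, against 9.19 and 10.1 FPKM in shCtrl. Its difference of -0.64 was the farthest below 0 of all 68 tested genes, at a limma-trend adjusted p of 0.572. It came to -0.49 with the GC trend removed. Without shNME7 1, which leaves 1 shNME7 library, it was -0.72. CBL, the ubiquitin ligase of activated receptors, stood at 7.10 and 7.45 FPKM in shNME7 and 8.17 and 9.56 FPKM in shCtrl, with no overlap.

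In the values as deposited the kinase cascade itself was near the middle of the transcriptome. Of 12 RAS, RAF, MEK and ERK genes 10 were tested, 4 with a lower and 6 with a higher mean, and their median difference was 0.02. Wholly below lay 2 of the 10, and 1 lay above, beside 18.4% and 17.8% of all genes. With the GC trend removed 4 lay wholly below, beside 23.5% of all genes, and 1 above, with a median of -0.07. MAPK3, which encodes the kinase ERK1, stood at 23.6 and 27.4 FPKM in shNME7 and 25.3 and 22.6 FPKM in shCtrl, so its groups overlapped. The RAF-activating scaffold gene SHOC2, at 12.2 and 9.21 FPKM in shNME7 and 13.96 and 13.97 FPKM in shCtrl, was lower in both shNME7 libraries without passing. Among ERK substrates and repressors 6 were lower and 6 higher of the 12 tested of 13. With the GC trend removed 4 of the 12 lay wholly below and 1 above, with a median of -0.08. CIC itself stood at 6.84 and 9.96 FPKM in shNME7 and 8.69 and 7.19 FPKM in shCtrl, the shNME7 libraries lying on either side. The ternary complex factor gene ELK4 had a difference of -0.30, and the ribosomal S6 kinase gene RPS6KA1 one of 0.29.

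Of 15 other ERK output genes 11 were tested, 9 with a lower and 2 with a higher mean. In 10 of the 11 the groups overlapped, with 1 wholly below and 0 above, beside 18.4% and 17.8% of all genes. With the GC trend removed, 5 of the 11 lay wholly below, beside 23.5% of all genes, and 0 above. Their median was then -0.24, against -0.11 before. In the values as deposited the gene without overlap was CCND1, the cyclin of the G1 phase, at 16.9 and 19.9 FPKM in shNME7, against 21.0 and 24.6 FPKM in shCtrl (difference -0.29, adjusted p 0.795 in limma-trend, and -0.18 without shNME7 1 or shCtrl 2). PHLDA1, at 6.18 and 2.87 FPKM in shNME7 and 5.78 and 5.63 FPKM in shCtrl, was low only in shNME7 2, as EGR1 was, and its difference of -0.35 became 0.098 without that library. Of the paralogues of the 10 genes 9 of 14 were tested, 6 with a lower and 3 with a higher mean. Wholly below lay 4 of the 9, and 2 lay above. With the GC trend removed 5 lay wholly below, beside 23.5% of all genes, and 1 above. DUSP9, a cytoplasmic ERK phosphatase, stood at 7.48 and 11.6 FPKM in shNME7, against 6.75 and 4.18 FPKM in shCtrl, at 0.71 at a limma-trend adjusted p of 0.730. DUSP9 lay above shCtrl in both libraries, where its relative DUSP4 lay below. Their transcripts differ in GC content, 65.7% in DUSP9 and 53.1% in DUSP4, and differences rose with GC content across all genes. The difference of DUSP9 was 0.99 without shNME7 1, which leaves 1 shNME7 library, and 0.42 without shNME7 2 and 0.42 without shCtrl 2. DUSP2, at 5.75 and 8.29 FPKM in shNME7 and 5.37 and 5.29 FPKM in shCtrl, also lay above, but its groups overlapped with the GC trend removed. ETV1, the third factor of the ETV4 and ETV5 group and chosen here after its values were seen, averaged 2.79 ± 0.324 FPKM in shNME7 and 4.44 ± 0.417 FPKM in shCtrl.

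**Figure D5:**
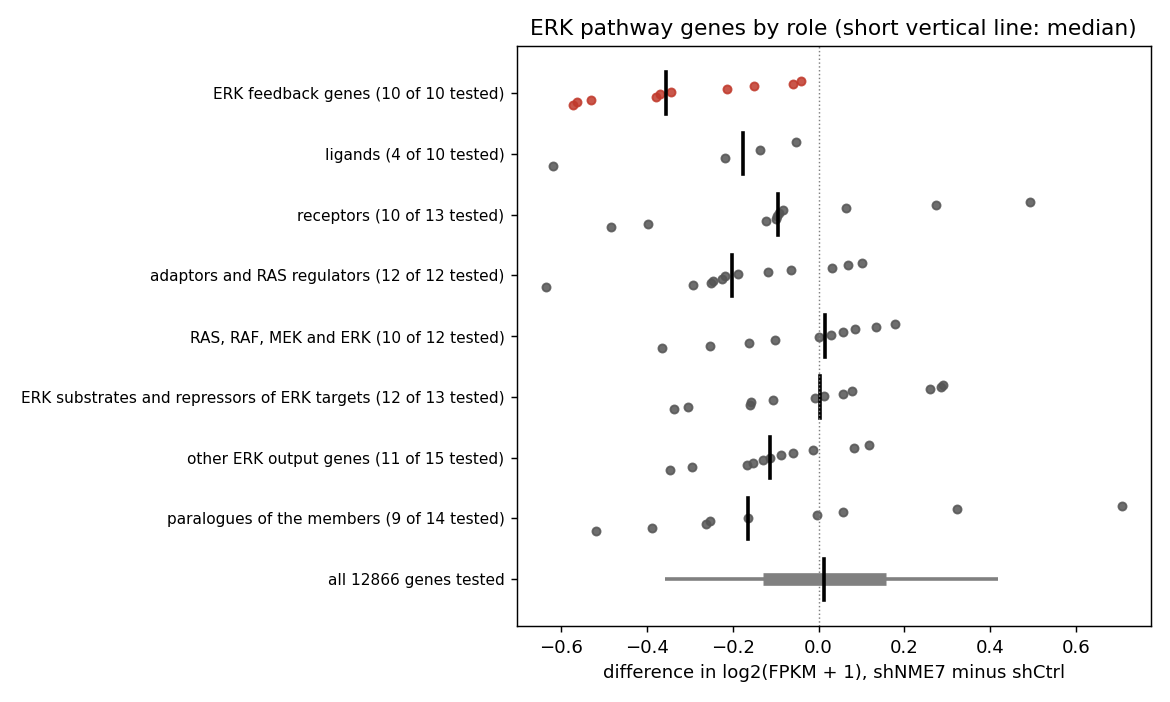
Difference in log2(FPKM + 1), shNME7 minus shCtrl, on the x axis for each tested gene of the pathway, 1 point a gene, in rows by role with the number tested. Short vertical lines are medians, -0.36 for the ERK feedback genes and 0.01 for all 12866 genes, whose quartiles (thick bar) and 5th to 95th percentiles (thin line) form the last row.

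The mean profile of the 10 genes, centred over the 4 libraries on the log2(FPKM + 1) scale, was -0.06 and -0.26 in shNME7 and 0.16 and 0.16 in shCtrl. By Euclidean distance over these 4 libraries, the nearest of 7670 genes with a mean of at least 5 FPKM were LEMD3 (0.0162), ZNF41 (0.0462), ETFDH (0.0495), NR3C1 (0.0511) and HCG11 (0.0548). LEMD3, for example, stood at 6.94 and 5.78 FPKM in shNME7, against 8.12 and 8.18 FPKM in shCtrl. With 4 libraries such likeness is a description only.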

How the data were processed

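RNA-seq was analysed for 2 shNME7 and 2 shCtrl libraries, grouped by sample title. The authors deposited 1 table per library of FPKM values for 58735 genes, per the file headers. HISAT2 2.0.5 and the build hg18 are named per the submitters' processing notes, whereas the gene IDs all occur in GENCODE v29, which is on GRCh38 and gave names, exon lengths and coordinates. The sources used here do not give the counting tool, strand setting or filters. FPKM times exon length gave whole fragments (100% within 0.01), so fragments were recovered. A count of 0 allows up to 3 fragments. This limit and the exact Poisson intervals (95%) cover counting error only.

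The test was limma-trend (limma 3.58.1, R 4.3.3) on log2(FPKM + 1) with group as its single term, for genes with a mean of at least 1 FPKM. P-values are two-sided, adjusted by Benjamini-Hochberg over all genes tested, with a threshold of 0.05. Alternatives were limma-voom on recovered fragments (mean of at least 10), other pseudocounts, filters and scalings, a loess correction for GC content and length in each library (span 0.3), a replicate block, and each library left out. The steps were tested on simulated data.

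The 10 genes and all lists were chosen with earlier results of these data known. All 10 are named, as are NME7, CIC and MAPK3. From each pathway list the text names up to 4 genes past the threshold or, failing that, the 2 with the largest absolute difference whose higher group averages at least 5 FPKM; a few genes that this takes in are not reported here. Also named are the 5 genes nearest to the 10 in profile.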

Additional observations from a re-analysis of the deposited data

How the results depend on the processing

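All 21 alternatives gave the 10 genes 210 differences, of which 202 were lower in shNME7. The other 8 came from leaving out 1 library. Over those in limma-trend the range was -0.24 to 0.12 for DUSP5, -0.20 to 0.12 for ETV4 and -0.78 to 0.044 for EGR1. In limma-voom DUSP5 was 0.15 without shNME7 2 and 0.0096 without shCtrl 2, ETV4 was 0.12 without shCtrl 1, and EGR1 was 0.079 without shNME7 2. Between 0 and 2 of the 10 genes passed with a library left out, and 0 under every other alternative. Their median ran from -0.60 (limma-voom without shNME7 1) to -0.22 (limma-trend without shNME7 2) over all settings. Genes called in the whole transcriptome, 0 with all libraries in limma-trend, numbered 11 among protein-coding genes only, 1 after GC and length correction, 20 in limma-voom with total or median-ratio scaling, 11 in limma-voom after that correction, 112 to 632 with a library left out, and 418, 41, 40 and 28 in limma-voom without shNME7 1, shNME7 2, shCtrl 1 and shCtrl 2 in turn. The number was 0 with a pseudocount of 0.1, with no filter and with TPM scaling.

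With the replicate number as a block 122 genes passed, and 34 in limma-voom (added after seeing the data, as were the crossed pairing and leaving libraries out in limma-voom), with 0 of the 10 genes. With the block and the GC trend removed 0 passed in either test. Whether equal numbers mark a shared culture or day is not known. Deviations of shNME7 1 and shCtrl 1 from their group means correlated at -0.35 over 12866 genes. These genes share libraries and are not independent, so this correlation cannot settle the pairing. A crossed pairing called 0 genes, with 2684 at an unadjusted p under 0.05. With 2 libraries a group, an exact permutation test of 1 gene cannot fall below 0.333. EGR1, DUSP6, SPRY4 and DUSP5 rest on the fewest fragments, 50 to 245 per library.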
